A study of Mus musculus with 18 samples.

Results

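Open chromatin of liver macrophages (LMs) was mapped by Fast-ATAC-Seq, which reads out where a transposase could reach the DNA, and the open regions described here are those at two-way coding promoters. A region was taken when its midpoint lay within 1000 bp of transcription start sites of at least 2 different protein-coding genes on opposite strands of mm9 (GENCODE vM1). The rule used positions only, and 1816 of the 69499 deposited regions met it. All were on chromosomes 1 to 19, which held 68533 regions, of which 19208 had a coding start within 1000 bp.

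The LMs came from male C57BL/6J mice on a high-fat, high-sucrose diet (D12492i) for 4 weeks. There were 18 libraries, 3 for each of 6 groups: *Reverb/Scap*-hTKO, *Reverb*-hDKO and Control mice, each at ZT10 and at ZT22. Mice with floxed alleles received AAV-TBG-CRE as adults to delete both *Rev-erb* genes, or these and *Scap*, and Control mice received AAV-TBG-GFP, so all groups carried an AAV and the hepatocyte-specific TBG promoter placed the deletion in hepatocytes, not in the LMs assayed. The sorted LMs comprised Kupffer cells and macrophages derived from monocytes. The deposited list joined all libraries and gave positions alone, so no depth, replicate error, genotype or time of day could be read for any region. Of the marker genes on chromosomes 1 to 19, an open region lay within 1000 bp of the first base of 11 of 18 macrophage genes, 19 of 21 hepatocyte gene records and 7 of 10 endothelial genes. These shares were 61.1%, 90.5% and 70%, beside 54.0% of all 21418 coding genes. *Csf1r*, *Lyz2*, *Marco* and *Mpeg1* were among the macrophage genes with none. What signal of hepatocytes or endothelial cells contributed to the regions below was not tested.

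Genes transcribed outward from a common stretch of DNA share a bidirectional promoter. Most such promoters in mammals are CpG islands without a TATA box, and many serve housekeeping genes for DNA repair, mitochondria and protein synthesis. ETS factors such as GABP, NRF1, NFY and YY1 are known to bind at promoters of this kind.

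The sequences of 7 such regions are shown because their pairs are textbook examples or, for the histones, because their motif content stood apart. They are read on the plus strand of NCBIM37, the assembly of mm9, over the whole open region, with the matches to the searched motifs in capitals.
Hspd1/Hspe1, chr1:55144813-55144988: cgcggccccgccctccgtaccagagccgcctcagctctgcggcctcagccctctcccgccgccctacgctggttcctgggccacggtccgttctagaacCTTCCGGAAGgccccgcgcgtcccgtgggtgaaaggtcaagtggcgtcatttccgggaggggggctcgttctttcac
Surf1/Surf2, chr2:26771823-26772010: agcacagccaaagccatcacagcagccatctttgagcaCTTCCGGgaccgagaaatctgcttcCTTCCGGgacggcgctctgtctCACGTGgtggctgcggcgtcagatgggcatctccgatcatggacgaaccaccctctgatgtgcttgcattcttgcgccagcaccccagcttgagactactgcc
Polr1c/Yipf3, chr17:46384931-46385117: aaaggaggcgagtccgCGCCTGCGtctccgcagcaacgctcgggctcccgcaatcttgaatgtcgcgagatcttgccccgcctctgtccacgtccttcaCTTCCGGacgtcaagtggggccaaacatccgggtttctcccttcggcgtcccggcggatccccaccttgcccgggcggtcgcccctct
Ppat/Paics, chr5:77380216-77380415: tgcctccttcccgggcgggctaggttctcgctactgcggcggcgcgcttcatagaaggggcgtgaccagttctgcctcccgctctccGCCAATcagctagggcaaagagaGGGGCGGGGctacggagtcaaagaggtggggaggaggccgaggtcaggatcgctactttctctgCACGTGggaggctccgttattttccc
Brca1/Nbr1, chr11:101413201-101413464: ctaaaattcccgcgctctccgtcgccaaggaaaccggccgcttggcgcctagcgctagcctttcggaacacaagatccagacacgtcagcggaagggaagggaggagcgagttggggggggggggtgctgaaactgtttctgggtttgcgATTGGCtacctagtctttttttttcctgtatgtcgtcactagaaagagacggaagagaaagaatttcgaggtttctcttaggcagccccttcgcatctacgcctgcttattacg
Mrps12/Sars2, chr7:29526881-29527067: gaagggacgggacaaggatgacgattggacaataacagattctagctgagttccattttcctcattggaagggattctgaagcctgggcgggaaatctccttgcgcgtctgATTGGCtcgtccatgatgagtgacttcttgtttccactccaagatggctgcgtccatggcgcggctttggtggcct
Hist1h2bh/Hist1h3f, chr13:23635246-23635501: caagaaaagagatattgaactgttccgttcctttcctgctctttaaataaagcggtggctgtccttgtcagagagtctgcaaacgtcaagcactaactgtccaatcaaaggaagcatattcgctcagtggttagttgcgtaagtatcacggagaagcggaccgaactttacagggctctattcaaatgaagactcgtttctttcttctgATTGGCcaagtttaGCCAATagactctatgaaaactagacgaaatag

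The region of *Hspd1* and *Hspe1*, the chaperonin of the mitochondrial matrix and its cochaperonin, held a palindrome that reads CTTCCGGAAG on both strands and so counted as 2 overlapping ETS/GABP matches. *Surf1*, an assembly factor of cytochrome c oxidase, and *Surf2* had 2 separate ETS/GABP matches and a CACGTG E-box. *Polr1c*, a subunit shared by RNA polymerases I and III, and *Yipf3* had an NRF1 and an ETS/GABP match. The region of *Ppat* and *Paics*, enzymes of purine synthesis, held NFY, SP/KLF and E-box matches in that order. *Brca1* and *Nbr1* had 1 NFY match, as did the mitochondrial ribosomal gene *Mrps12* with the seryl-tRNA synthetase gene *Sars2*. The region of the histone genes *Hist1h2bh* and *Hist1h3f* had 2 NFY matches, on opposite strands.

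The 1816 regions belonged to 1185 pairs of genes, a pair being the nearest start of each strand. Of these pairs, 682 (57.5%) had 1 region, 393 had 2, 95 had 3, 12 had 4 and 3 had 5. Regions of 1 pair share their sequence surroundings and are not independent. The pairs with 5 regions were *Ampd2* with *Gm12500*, *Atp6v1a* with *Naa50*, and *Mesdc1* with *Mesdc2*. *Atp6v1a* encodes the catalytic subunit of the vacuolar proton pump, and its 5 regions lay on chromosome 16 between 44139096 and 44140893. They were 189, 163, 311, 151 and 160 bp wide, and only the 311-bp region lay between genes and spanned both starts. In pairs with more than 1 region, neighboring midpoints were a median of 454 bp apart (interquartile range, 354 to 590 bp, 631 gaps). Another open region lay within 1000 bp of 64.2% of two-way regions and 58.2% of one-way regions in CpG-rich sequence, a difference of 6.00 points (95% Newcombe interval, 3.58 to 8.38), which was positive on 12 of 19 chromosomes.

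Comparisons were made with CpG-rich one-way regions, the 10405 regions with coding starts on 1 strand only and with a GC content of at least 50% and an observed/expected CpG ratio of at least 0.6 within 250 bp of the midpoint. They are set beside two-way regions of any sequence, so CpG content was also held equal where noted. Intervals cover counting error only. The value on each of the 19 chromosomes stands in for the spread, which no replicate gives.

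Two-way regions and the other CpG-rich promoters did not differ detectably in mean width. Their mean width was 207 ± 52.2 bp (SD over 1816 regions), against 207 ± 54.2 bp for CpG-rich one-way regions and 186 ± 48.5 bp for all 68533 regions. The difference from CpG-rich one-way regions was -0.246 bp (95% interval, -2.86 to 2.37), and two-way regions were wider on 12 of 19 chromosomes. The commonest width in the list was 151 bp, and 81.3% of two-way regions exceeded it, against 79.9% of CpG-rich one-way regions (difference, 1.41 points, -0.597 to 3.30) and 53.4% of all regions. This comparison depended on which regions were counted: among CpG-rich two-way regions alone the mean was 3.16 bp larger than in CpG-rich one-way regions (0.287 to 6.03), whereas among regions of at least 200 bp it was 3.78 bp smaller (-7.10 to -0.455).

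The widest two-way region, 594 bp on chromosome 6 from 71858741 to 71859334, held both starts of *Ptcd3*, a mitochondrial translation gene, and *Polr1a*, the largest subunit of RNA polymerase I. The next was a 494-bp region of *Hnrpdl* and *Enoph1*. The others of the 8 widest were those of *Erc1* with *3110021A11Rik* (460 bp), *Exoc5* with *Mudeng* (459 bp), *Trappc4* with *Rps25* (457 bp), *4931422A03Rik* with *Fbxo3* (449 bp), *Abi3* with *Gngt2* (432 bp) and *Pdap1* with *Bud31* (428 bp). Of these 8, only the region of *Abi3* and *Gngt2* held both an AP-1 and a PU.1 match. There were 3 coding genes in reach of 37 regions, and no region reached more. The widest of these 37 were at *Mrto4* with *C230096C10Rik* and *Ubr4* (304 bp), at *Alkbh1* with *1810035L17Rik* and *2700073G19Rik* (283 bp) and at *Rad17* with 2 records of *Taf9* (272 bp).

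The nearest opposite starts were head to head, that is, with the minus-strand start on the lower coordinate, in 80.8% of two-way regions (1468 regions; 95% Wilson interval, 79.0 to 82.6). The head-to-head distance had a median of 178 bp (interquartile range, 90 to 370 bp). In the other 348 regions the starts overlapped, by a median of 324 bp. With 1 start per gene, the first base of the gene record, the head-to-head share was 67.2%. Of all two-way regions, 68.0% held at least 1 of the 2 starts and 25.2% held both. Midpoints lay in an exon in 49.9% of two-way regions and 35.8% of CpG-rich one-way regions, a difference of 14.1 points (11.7 to 16.6) that had the same sign on all 19 chromosomes. They lay between genes in 27.4% and 42.1%. The rule asks for a second gene start on the opposite strand within 1000 bp, which leaves less room between genes. Part of these 2 differences is thus built in, and how large a part was not tested.

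The regions at closely spaced pairs did not sit on the middle of the pair but toward higher coordinates. Among the 1005 regions whose head-to-head starts were up to 300 bp apart, the midpoint lay a median of 36.5 bp (interquartile range, -10 to 73 bp) above the middle of the 2 starts. It was on the higher side in 71.5% (719 regions; 68.7 to 74.3), and in most regions on 18 of 19 chromosomes. The other two-way regions had medians near the middle but a far wider spread. In the 463 with head-to-head starts over 300 bp apart, the median was -1 bp (interquartile range, -209 to 246 bp), with 49.9% on the higher side. In the 348 with overlapping starts it was -4 bp (-193 to 272 bp), with 49.1% on the higher side. With this spread, a displacement of the size seen at closely spaced pairs could go unseen. A pair of opposite starts has no built-in direction, since plus and minus are labels of the reference. One-way regions of any sequence lay differently about starts of the 2 strands. Their midpoints lay a median of -3.5 bp from plus-strand starts (47.6% on the higher side) and 67 bp from minus-strand starts (66.9%). The mean of these medians was 31.8 bp. It measures a shared displacement only if regions lie equally far upstream of starts on both strands, which was not tested. Matches of ETS/GABP, NFY and NRF1 within 150 bp of the midpoint of two-way regions lay mostly on the lower side. The mean was 20.6 ± 3.15 bp (SE) lower for the 528 ETS/GABP matches, 25.9 ± 2.42 bp for the 769 NFY matches and 24.9 ± 3.54 bp for the 456 NRF1 matches. The 443 SP/KLF matches had a mean of -12.1 ± 3.78 bp but were near evenly split (51.9% lower). The 44 AP-1 matches had a mean of -12.5 ± 13.7 bp (56.8% lower). Over all regions of chromosomes 1 to 19, the means of these 5 words were on the lower side too. They were -17.3 ± 1.09 bp for ETS/GABP, -10.7 ± 0.611 bp for NFY and -21.1 ± 1.23 bp for NRF1. SP/KLF had -11.0 ± 1.12 bp and AP-1 had -17.4 ± 0.895 bp (6840 matches, 61.5% lower). A displacement of matches toward the lower side was thus not particular to two-way regions. Moving every region 32 bp toward lower coordinates, an alternative chosen after seeing the data, brought the median at closely spaced pairs to 9.25 bp and the higher side to 55.5% (52.4 to 58.6). Where the displacement arose was not tested. The share of two-way regions with the midpoint between the starts was 52.0% as deposited and 55.7% after the move, and the share holding both starts rose from 25.2% to 28.7%.

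**Figure D1:**
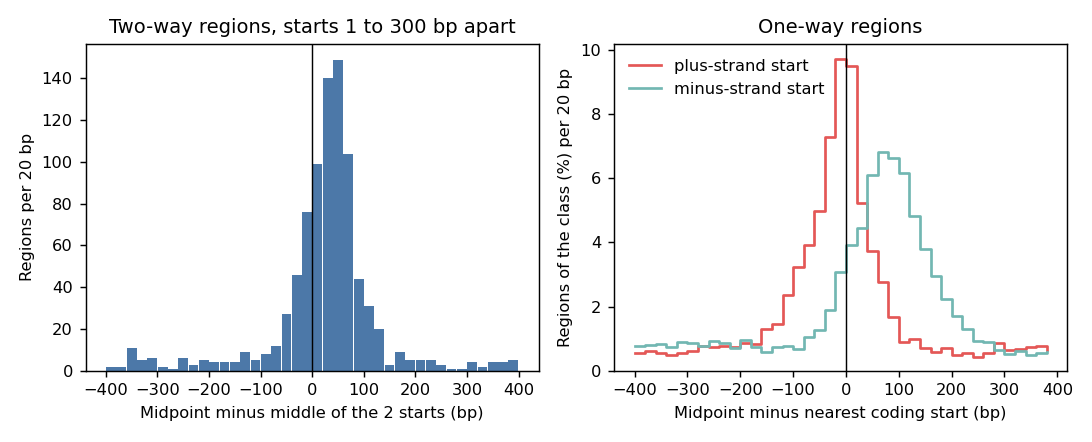
Left, two-way regions with head-to-head starts up to 300 bp apart, counted per 20 bp of the distance from the middle of the starts to the midpoint (positive toward higher coordinates). Right, the share of one-way regions per 20 bp of the distance from the nearest start, for plus-strand and minus-strand starts. The left peak lies to the right of 0 (median, 36.5 bp), and the one-way medians are -3.5 and 67 bp.

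Two-way genes were open far more often than other coding genes. An open region lay within 1000 bp of the first base of 2264 of 2516 genes (90.0%, 88.7 to 91.1) with another coding gene's start on the opposite strand within 1000 bp, against 9300 of 18902 other coding genes (49.2%), with 54.0% over all 21418 coding genes. The difference was 40.8 points (39.4 to 42.1) and ranged from 31.9 to 57.0 points over the 19 chromosomes. Among genes with a CpG-rich start in both classes, it was 94.6% against 82.0%, or 12.5 points (11.2 to 13.8). One region can count for both genes of a pair, and which of the 2 starts an open region serves cannot be told apart here.

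Of 1361 annotated pairs with first bases up to 2000 bp apart, 1236 (90.8%, 89.2 to 92.2) had an open region within 1000 bp of either base. Pairs 0 to 100 bp apart were open in 95.2% (278 of 292) and pairs 100 to 300 bp apart in 95.8% (316 of 330). The share was 89.5% at 300 to 500 bp, 90.1% at 500 to 1000 bp, 82.6% at 1000 to 2000 bp and 86.9% for overlapping starts. The intervals of pairs 0 to 100 bp apart (92.1 to 97.1) and 100 to 300 bp apart (93.0 to 97.5) lay above those of overlapping pairs (83.5 to 89.7) and of pairs 1000 to 2000 bp apart (74.7 to 88.4), whereas neighbors in the order of distance from 0 bp upward had intervals that overlapped. Open pairs had more than 1 region in 36.1% of cases at 100 to 300 bp, 68.5% at 500 to 1000 bp and 53.4% for overlapping starts. The span searched widens with the distance between the 2 first bases, which leaves more room for regions. Part of these differences is thus built in, and how large a part was not tested. Pairs up to 1000 bp apart were open in 95.7% of cases when both starts were CpG-rich (880 of 920), in 90.3% when 1 was and in 65.4% when neither was (68 of 104; 55.8 to 73.8).

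**Figure D2:**
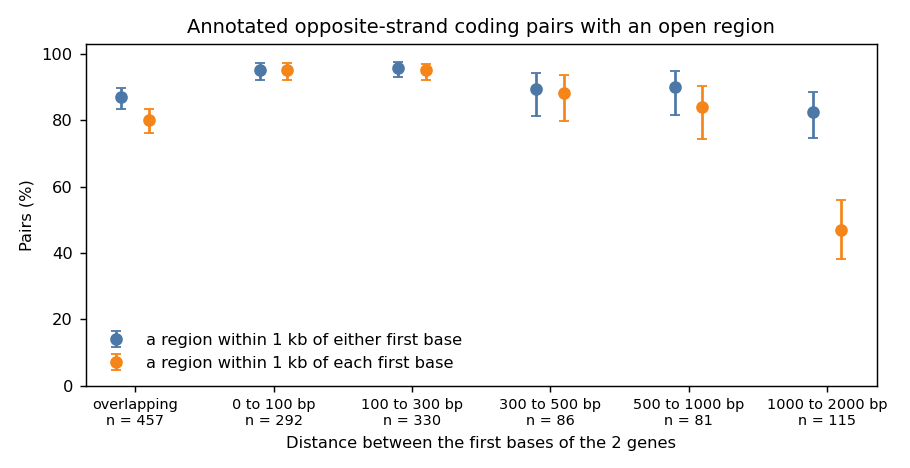
Share of annotated opposite-strand coding pairs with an open region, by the distance between their first bases. Points are shares with 95% Wilson intervals, for a region near either base (blue) or near each (orange), and the latter falls to 47.0% at 1000 to 2000 bp. Part of this fall is built in, since bases over 1000 bp apart leave less room for 1 region near both.

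Closed pairs, those up to 1000 bp apart with no region within 1000 bp, numbered 93. In 57 of them at least 1 gene had a provisional symbol of the Gm or Rik kind. Pairs with such a gene were open in 84.9% (320 of 377; 80.9 to 88.1) and pairs without in 95.6% (786 of 822; 94.0 to 96.8). The 2 textbook pairs of collagen IV genes, whose products form basement membranes, were closed. The first bases of *Col4a1* and *Col4a2* overlapped by 21 bp, both starts were CpG-rich, and the nearest region lay 10293 bp away. *Col4a3* and *Col4a4* were 72 bp apart, and the nearest region lay 49673 bp away. *Duox2* with its maturation factor *Duoxa2* and *Kirrel2* with the nephrin gene *Nphs1* were closed too, 2 examples that were chosen after their values were seen. Of the histone pairs, *Hist1h2bq* with *Hist1h2ao*, *Hist1h2ap* with *Hist1h2br*, and *Hist1h2ba* with *Hist1h2aa* were closed. How reads that map to several gene copies were handled is not given in the sources used here. Whether this bears on any of these pairs was not tested.

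The other textbook pairs all had open regions. Of 21, 19 had between 1 and 3. Such a count was not particular to them, as 90.8% of all 1361 annotated pairs had an open region within 1000 bp of either first base. *Atm*, the kinase that responds to DNA breaks, and *Npat* had 1 region of 235 bp on chromosome 9 from 53344936 to 53345170 between starts 307 bp apart. *Prkdc*, the catalytic subunit of DNA-dependent protein kinase, and the helicase gene *Mcm4* had 1 of 214 bp with starts 466 bp apart. *Hadha* and *Hadhb*, the subunits of the mitochondrial trifunctional protein, had 1 of 357 bp that held both starts, which were 86 bp apart. *Tap1*, the peptide transporter, and the immunoproteasome gene *Psmb9* had 1 of 171 bp. *Pdcd10* and *Serpini1* had 2 regions, of 223 and 186 bp, with starts 691 bp apart. *Tk1* and *Afmid* counted as a pair only through an alternative transcript: their gene records start 16424 bp apart, but the nearest transcript starts were 57 bp apart.

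Several groups of genes for basic cell functions were more often at two-way regions than coding genes at large. Of all 21418 coding genes, 11.1% (10.7 to 11.5) were in reach of a two-way region. Among 50 genes of DNA repair and replication the share was 42.0% (21 genes; 29.4 to 55.8), among 77 mitochondrial ribosomal genes 37.7% (29 genes, 27.7 to 48.8), among 67 replication-dependent histone genes 32.8% (22 genes, 22.8 to 44.7), among 96 genes of oxidative phosphorylation 32.3% (31 genes, 23.8 to 42.2), among 37 aminoacyl-tRNA synthetases 29.7% (11 genes, 17.5 to 45.8), and among 26 genes of mitochondrial import and chaperones 26.9% (7 genes, 13.7 to 46.1). The intervals of the 41 proteasome genes (19.5%, 10.2 to 34.0) and the 72 cytosolic ribosomal genes (18.1%, 10.9 to 28.5) took in the value of all genes. The 11.1% also counts genes with no open region: 54.0% of all coding genes were open, against 82.1% to 100% in these lists. Of the 11564 open coding genes, 2264 had an opposite partner. Shares among open genes alone were not compared. These shares follow from where genes lie together with where chromatin was open, and most of these genes were open whatever their arrangement: 29 of 31 DNA repair genes and 46 of 49 mitochondrial ribosomal genes without an opposite partner had a region, as did 18 of 19 and 28 of 28 with one.

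In the repair list, *Brca1*, *Atm*, *Chek2* (a checkpoint kinase, with *Hscb*) and *Pole* (the leading-strand polymerase, with *Pxmp2*) were among the 21. *Lig1*, the replicative ligase, reached a two-way region through another transcript although no region lay within 1000 bp of its first base. Some mitochondrial genes faced each other, such as *Mrps11* with *Mrpl46*, *Mrpl47* with *Ndufb5* of complex I, and *Sdhd* of complex II with the import gene *Timm8b*. *Atp5j*, a subunit of the ATP synthase, shared its region with *Gabpa*, which encodes the DNA-binding subunit of GABP. *Mrpl40* with the histone chaperone gene *Hira*, and *Uqcrh* of complex III with *Lrrc41*, had 3 regions each. The oxidative phosphorylation list was chosen by symbol, and it took in *Cox4nb*, the neighbor of *Cox4i1*, which is not a respiratory chain gene.

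Lists of cell type markers and of the study's pathways had between 0 and 3 genes at two-way regions. None of 20 clock genes was at a two-way region, although all 20 had an open region at their first base. Neither was any of 18 macrophage genes, 21 hepatocyte gene records, the 11 genes that the study names or 41 collagen genes. With lists this short the upper limits of the intervals were 16.1%, 17.6%, 15.5%, 25.9% and 8.57%, so only the collagen interval lay below the 11.1% of all genes. None of 1106 olfactory receptor genes was at one, and 7 had an open region at all. Of 25 genes of the SREBP pathway and of sterol or fatty acid synthesis, 3 were at two-way regions. *Acaca*, which makes malonyl-CoA, faced *Tada2a* over 72 bp (region of 189 bp, chromosome 11 from 83943054 to 83943242, with an E-box match). *Mvk*, the mevalonate kinase gene, faced *Mmab* over 210 bp (214 bp, chromosome 5 from 114894114 to 114894327, with an NFY match). *Dhcr7*, the last enzyme of cholesterol synthesis, faced *Nadsyn1* over 296 bp (171 bp, chromosome 7 from 151008819 to 151008989, with ETS/GABP, NRF1 and SP/KLF matches). No SREBP match lay within 150 bp of these 3 midpoints. The SREBP word was in only 1.21% of two-way regions and 1.48% of all regions, so none would be usual for any 3 regions. Among endothelial genes, *Pecam1* (with *Gm885*) and *Stab1* (with *Tnnc1*) had 1 region each, both of 151 bp.

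**Figure D3:**
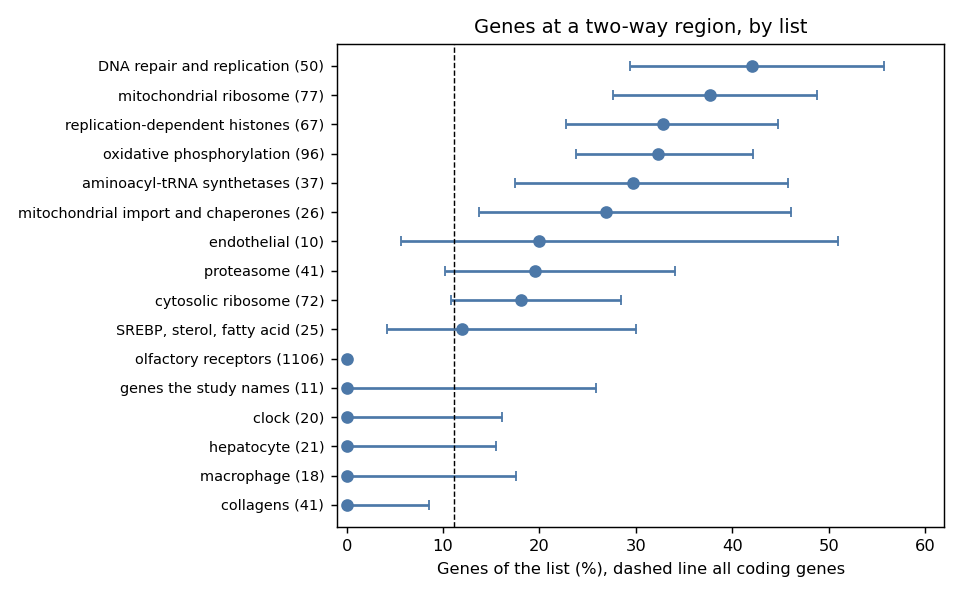
Share of the genes of each list that were in reach of a two-way region, with 95% Wilson intervals and the number of genes in parentheses. The dashed line is the 11.1% of all coding genes, open or not, and 6 lists have intervals wholly above it.

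Motifs were searched on both strands within 150 bp of each midpoint, by their letters: ETS/GABP CCGGAAG, NFY ACCAAT or GCCAAT, NRF1 CGCNTGCG, SP/KLF GGGGCGGGG, YY1 AAGATGGCG, ZNF143 ACTACAATT, the cyclic AMP element (CRE) TGACGTCA, the E-box CACGTG, the box upstream of some starts TATAAA, AP-1 TGACTCA or TGAGTCA, PU.1 GAGGAAGT, CTCF AGGGGGC, ROR/REV-ERB TAGGTCA and SREBP TCACNCCAC. A match describes the sequence and is no evidence of binding. NFY words were in 28.8% of two-way regions, 23.4% of CpG-rich one-way regions and 19.4% of all regions, and ETS/GABP words in 23.6%, 17.4% and 5.99%. The differences between the first and second classes were 5.39 points for NFY (3.19 to 7.66, positive on 17 of 19 chromosomes) and 6.24 points for ETS/GABP (4.20 to 8.37, positive on 18 of 19). Both kept their sign and an interval above 0 under all 15 alternative settings, from 4.51 to 9.75 points and from 5.10 to 12.1 points.

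ZNF143 words were rare, at 1.05% against 0.529% (difference, 0.518 points, 0.110 to 1.11), with an interval that took in 0 under 4 of 15 settings. YY1 words were in 4.13% against 3.23%, with an interval that barely cleared 0 (0.00399 to 1.97), was positive on 9 of 19 chromosomes and took in 0 under 5 of 15 settings. SP/KLF words were less frequent, in 19.4% against 23.7% (difference, -4.31 points, -6.24 to -2.26), and so was the CTCF word, in 13.99% against 18.01% (-4.02 points, -5.72 to -2.20). When the two-way regions were limited to CpG-rich ones, the SP/KLF difference was -1.66 points with an interval that took in 0 (-3.87 to 0.668), while the ETS/GABP difference was 9.81 points. The remaining 8 motifs had intervals that took in 0. NRF1 words were in 19.6% and 19.3%, but among CpG-rich two-way regions alone they were in 22.9%, 3.57 points more than in CpG-rich one-way regions (1.36 to 5.91), and the interval lay above 0 under 5 of 15 settings. Words of factors typical of macrophage enhancers were sparse in both promoter classes, with AP-1 in 2.42% of two-way regions against 9.30% of all regions and PU.1 in 2.70% against 5.31%. The ROR/REV-ERB word was in 1.60% of two-way, 1.16% of CpG-rich one-way and 3.71% of all regions.

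**Figure D4:**
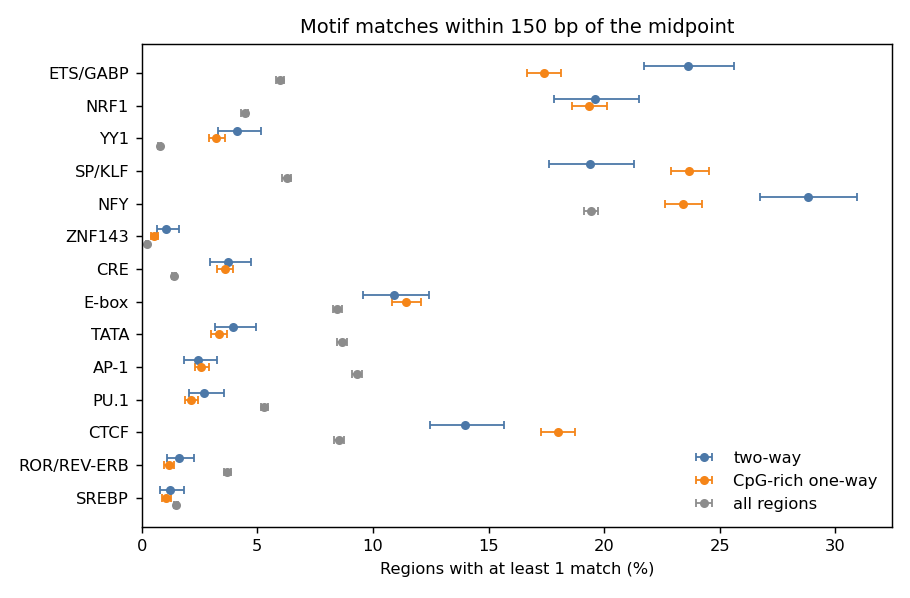
Share of regions with at least 1 match within 150 bp of the midpoint, for 14 motifs, in two-way regions, CpG-rich one-way regions and all regions of chromosomes 1 to 19, with 95% Wilson intervals. ETS/GABP and NFY lie to the right in two-way regions (23.6% and 28.8%), and SP/KLF and CTCF to the left of CpG-rich one-way regions.

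ETS/GABP matches gathered at the midpoints of two-way regions, with 13.1 matches per 100 regions in the first 50 bp on either side and 2.09 at 450 to 500 bp. They did so in CpG-rich one-way regions too, from 8.97 to 1.92. NFY matches fell from 20.2 to 5.40 per 100 two-way regions between the first 50 bp and 150 to 200 bp and stood at 6.50 at 450 to 500 bp, with 16.5, 4.30 and 4.98 in CpG-rich one-way regions. YY1 matches had an orientation: of 78 in two-way regions, 60 (76.9%, 66.4 to 84.9) read AAGATGGCG on the strand of the nearer start, 48 of them downstream of it. In CpG-rich one-way regions it was 276 of 344 (80.2%, 75.7 to 84.1). ETS/GABP matches in two-way regions showed no such preference, with 262 of 532 (49.2%, 45.0 to 53.5) on that strand. In CpG-rich one-way regions it was 1136 of 2142 (53.0%, 50.9 to 55.1). Here overlapping matches on opposite strands counted separately and each genome position once, unlike in the 528 matches above.

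The words were also counted in the regions at each gene group, with no test of the differences between groups. Of the 13 two-way regions in reach of a replication-dependent histone gene, 12 held an NFY word (92.3%, 66.7 to 98.6), 6 held TATAAA and none held an ETS/GABP, NRF1 or SP/KLF word. These regions come from related gene copies, so they are not independent. ETS/GABP words were in 14 of 37 regions at mitochondrial ribosomal genes (37.8%, 24.1 to 53.9), 4 of 8 at import and chaperone genes and 11 of 41 at oxidative phosphorylation genes, beside 23.6% of all two-way regions. NRF1 words, whose factor is known for nuclear genes of the respiratory chain, were in 13 of the 41 (31.7%, 19.6 to 47.0), beside 19.6%. NFY words were in 11 of 24 regions at DNA repair and replication genes (45.8%, 27.9 to 64.9). CTCF words were in 6 of 15 regions at aminoacyl-tRNA synthetases (40%, 19.8 to 64.3), beside 13.99%, and YY1 words in 3 of 19 at cytosolic ribosomal genes (15.8%, 5.52 to 37.6), beside 4.13%. Apart from the histone regions, these 2 and ETS/GABP at the mitochondrial ribosome were the ones among 8 motifs counted at the 7 other lists of basic functions whose intervals lay off the value of all two-way regions, the last by a narrow margin (24.1 against 23.6).

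TATAAA was rare at the place of a TATA box. It lay on the coding strand 20 to 40 bp upstream of 4 of 2841 two-way starts (0.141%, 0.0548 to 0.361), those of *Srsf2*, *Hist1h2bg*, *Cybasc3* and *Foxa3*, which were named after their values were seen. It lay there at 74 of 8953 CpG-rich one-way starts (0.827%) and 79 of 6202 CpG-poor one-way starts (1.27%). The difference between the first and second was -0.686 points (-0.912 to -0.409). Anywhere within 150 bp of the midpoint and on either strand, TATAAA was in 3.96% of two-way and 3.35% of CpG-rich one-way regions, a difference of the opposite sign whose interval took in 0 (0.620 points, -0.262 to 1.67).

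Two-way regions were CpG-rich in 81.0% of cases (1471 regions; 79.1 to 82.7), against 19.5% of all regions. Within 250 bp of the midpoint their mean GC content was 61.9 ± 7.24% (SD) and their mean observed/expected CpG ratio 0.776 ± 0.198, against 64.7% and 0.828 in CpG-rich one-way regions, which were chosen by these measures. Around 1066 head-to-head pairs of starts up to 500 bp apart, GC content was near flat within 200 bp of the middle, from 63.2% to 63.8%. It fell to 45.2% at 950 to 1000 bp on the left and 45.9% on the right. GC skew, the excess of G over C on the plus strand as a share of both, changed sign at the middle. Its mean was -0.0589 ± 0.147 (SD) at 200 to 500 bp on the left and 0.0554 ± 0.137 on the right, and it was lower on the left in 768 pairs (72.05%). On either side, the mean thus had more G than C on the coding strand of the gene that starts there.

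**Figure D5:**
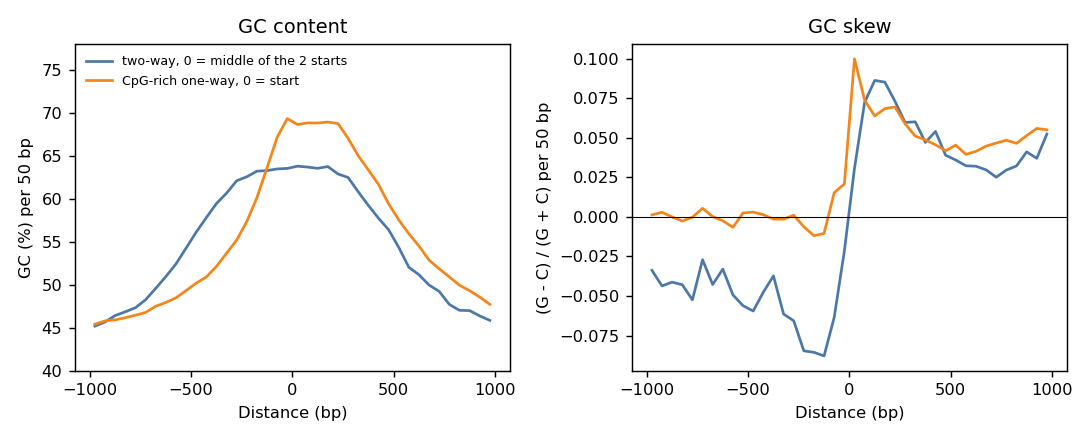
GC content (left) and GC skew (right) per 50 bp, around the middle of 1066 head-to-head pairs on the plus strand and around 8953 CpG-rich one-way starts on the coding strand. GC content of the pairs is near flat within 200 bp of the middle and falls farther out. Their skew passes from -0.0589 on the left to 0.0554 on the right.

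At the limit of the rule, the 2 members farthest from their farther start were those of *Hnrpdl* with *Enoph1* (999.5 bp) and *4930442H23Rik* with *Dapk3* (998.5 bp). The nearest regions left out, at 1002 bp each, were those of *Slc30a7* with *Extl2* and *Evc* with *Evc2*.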

How the data were processed

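Fast-ATAC-Seq libraries (18) were trimmed and aligned to mm9 with Bowtie by the authors, who applied the Kundaje ATAC-Seq pipeline and merged the aligned reads of biological replicates before calling peaks. HOMER is named for read counts. Beyond the pipeline, the peak caller, its settings and the joining of peaks are not given in the sources used here. The deposited file holds positions only (chromosome, start and end of each region, pooled over all libraries), with no score, so depth is unknown and no group was compared. Since replicates were merged first, presence of a region says nothing of any single library.

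Starts were the first bases of all transcripts of protein-coding genes (67194 starts, 21418 genes on chromosomes 1 to 19, GENCODE vM1). No region ran past the end of an NCBIM37 chromosome. Shares carry 95% Wilson intervals and their differences Newcombe intervals. The steps were tested on simulated data (Python 3.11.15, NumPy 2.4.6, matplotlib 3.10.9). Named genes are 21 textbook pairs, the 8 widest members, those with most genes or regions, members of the SREBP, clock and marker lists, and those at the limit. Other genes named were examples chosen after their values were seen. Members, lists and tests were chosen with earlier results of these data known. *Spi1*, *Vsig4* and *Hmgcs1* had no match by symbol on chromosomes 1 to 19, and *Trf* had 2 records. Some members that the rule would name are not reported here.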

Additional observations from a re-analysis of the deposited data

How the results depend on the processing

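No paired analysis was possible because the deposited list holds no value per library. The settings with midpoints within 150 bp of a start, CpG-rich regions or starts only, 1 gene per pair and moved regions were chosen after seeing the data. Of the recomputed values of the main results, 69 stayed within the original interval, or within 1.5 times the original count, and 57 moved.

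With starts within 500 bp, 87.7% of regions exceeded the commonest width (difference, 5.78 points), the mean width was 212.1 bp (difference, 3.69 bp), 84.2% were head to head, 57.5% had the midpoint between the starts and 88.8% were CpG-rich. With 250 bp, 911 regions remained, and these values were 94.1%, 7.67 points, 218.1 bp, 6.49 bp, 89.3%, 63.5% and 93.2%. With regions of at least 200 bp there were 905 (100% above the commonest width by construction, mean 245.7 bp, difference -3.78 bp, 55.7% between, 85.4% CpG-rich), and 2 motifs, ETS/GABP and NFY, stayed higher. With the first base of the gene record, 67.2% were head to head and 41.1% between. With 1 region per pair, 91.8% exceeded the commonest width (11.9 points), the mean was 216 bp (9.05 bp, though one-way regions were not thinned in the same way), 82.9% were head to head, 88.3% were CpG-rich and 1 motif was lower. With head-to-head pairs only, that share was 100% by construction.

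Against one-way regions of any sequence, the differences were 11.7 points and 7.54 bp, 7 motifs were higher and 1 lower, and SP/KLF turned to 2.66 points higher. With a stricter CpG rule, 69.3% were CpG-rich. With midpoints within 150 bp of a start in both classes, 88.9% exceeded the commonest width, the mean was 212.2 bp and 2 motifs were higher. With CpG-rich two-way regions only, the differences were 6.07 points and 3.16 bp, and 1 motif was lower. With moved regions, 55.7% of midpoints lay between the starts.

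The open share of two-way genes was 91.9% with partners within 500 bp, 86.4% within 2 kb (difference, 37.3 points), 93.1% with head-to-head partners (43.0), 85.1% with regions within 500 bp (38.6), 58.9% with regions of at least 200 bp (30.6) and 94.6% among CpG-rich starts (12.5). The difference was 7.96 points against other genes with a CpG-rich start and 36.8 points without receptor genes of smell. It kept its sign under all 10 settings. The cause of these moves was not tested, apart from those named as built in.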
